A study of Rattus norvegicus with 10 samples.

Results

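The genes described here encode the main molecular chaperones of the cell: the heat shock proteins, the DnaJ proteins that work with them, and the subunits of the cytosolic chaperonin. They were chosen by name. A gene was taken where its symbol began with Hspa, Hspb, Hspd, Hspe, Hsph, Hsp90 or Dnaj, or was Tcp1 or one of Cct2 to Cct8, and symbols beginning with Hspbap were left out. The rule itself used no measured value, although it was set with earlier results of these data known. This gave 71 of the 14217 genes that had a symbol of their own on the array, read by 108 of 31042 probe sets. Each gene is described through the probe set with the highest mean over all arrays.

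The series compared mRNA levels in the prefrontal cortex with behaviour among male Lewis rats, an inbred strain, so the rats are near-identical genetically. The 10 rats formed 1 untreated group, supplied by Charles River and drawn from 40 rats that were housed singly and tested for sugar feeding, locomotion, acoustic startle and prepulse inhibition. The brains were taken 6 days after testing ended. Frontal areas Fr1 and Fr2 were dissected without the olfactory bulb. Each rat gave 1 array and a number for each behaviour, and 7 rats also have a plus maze number. The labels state no unit for these numbers, no age, and no batch of extraction or hybridisation. Rats are numbered as the replicates are on the labels.

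Chaperones bind proteins that are not yet folded or have lost their fold. Hsp70 proteins, encoded by the Hspa genes, hold exposed stretches of a client protein in a cycle driven by ATP. DnaJ proteins bring clients to Hsp70 and start ATP hydrolysis, and nucleotide exchange factors such as the Hsp110 proteins release the client. Hsp90 proteins act later, on kinases and steroid receptors among others. The chaperonin built of Tcp1 and the Cct proteins folds actin and tubulin inside a closed chamber, and Hspd1 with its lid Hspe1 does similar work in mitochondria. Small heat shock proteins, the Hspb family, keep unfolded proteins from clumping. The transcription factor Hsf1 raises many of these genes under heat and other protein damage, while the endoplasmic reticulum has its own set, raised by the unfolded protein response. In neurons, DnaJ proteins also serve synaptic vesicles, where cysteine string protein (Dnajc5) protects the release machinery and auxilin (Dnajc6) strips clathrin from vesicles.

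Both control systems have short DNA motifs, and these were looked up in the promoters of the genes. Of the 71 genes, 60 had a promoter in the RefSeq table of the GRCr8 rat assembly, and the 250 bases upstream of the start were searched on both strands, as they were in all 33469 windows of that table. The motif of the endoplasmic reticulum stress element, CCAAT and CCACG with any 9 bases between them, was found upstream of 3 genes, Hspa5, Hsp90b1 and Dnajc3, which is 5.0% of the 60, against 22 windows or 0.066% of all. The windows of these 3 genes are shown because their transcripts are compared below as the endoplasmic reticulum set. Capitals mark the motif, in Hsp90b1 once on each strand. They lie at chr3:38452766-38453015 on the plus strand for Hspa5, chr7:23012294-23012543 on the minus strand for Hsp90b1 and chr15:102432417-102432666 on the plus strand for Dnajc3, all in GRCr8, and are printed 5′ to 3′ in the direction of the gene.
Hspa5: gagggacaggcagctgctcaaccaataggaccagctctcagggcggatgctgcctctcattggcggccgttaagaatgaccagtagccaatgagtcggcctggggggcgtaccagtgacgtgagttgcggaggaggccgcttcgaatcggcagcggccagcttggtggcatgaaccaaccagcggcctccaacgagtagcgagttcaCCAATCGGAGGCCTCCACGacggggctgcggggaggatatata
Hsp90b1: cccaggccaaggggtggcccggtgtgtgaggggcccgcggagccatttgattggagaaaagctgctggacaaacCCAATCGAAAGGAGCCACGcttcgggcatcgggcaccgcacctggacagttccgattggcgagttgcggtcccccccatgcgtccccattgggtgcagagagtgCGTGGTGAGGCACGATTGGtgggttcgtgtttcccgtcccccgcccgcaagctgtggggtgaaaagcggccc
Dnajc3: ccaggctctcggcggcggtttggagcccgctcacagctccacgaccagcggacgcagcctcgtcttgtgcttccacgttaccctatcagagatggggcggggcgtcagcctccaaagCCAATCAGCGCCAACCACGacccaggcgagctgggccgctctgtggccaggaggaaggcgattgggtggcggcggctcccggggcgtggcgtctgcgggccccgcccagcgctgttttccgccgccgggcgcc

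The core of the heat shock element was searched as GAANNTTC and as TTCNNGAA, which may overlap each other. At least 1 of these was found upstream of 15 of the 60 genes (25.0%), against 13.547% of all windows. The longer form has 3 units, GAA, TTC and GAA, with any 2 bases between neighbours, and overlaps the cores. Searched on either strand, it was found upstream of 3 genes, Hspd1, Hspe1 and Hsph1 (5.0%), against 0.663% of all windows. Hspd1 and Hspe1 lie head to head, so the 250-base windows share 211 bases, and both hold the same stretch of 18 bases at chr9:64084262-64084279. Counted from the gene start, it spans positions -242 to -225 of Hspd1 and -65 to -48 of Hspe1. The stretch is shown as read from each gene, followed by the window of Hsph1 at chr12:10427118-10427367 on the plus strand, where capitals mark a lone core and, nearer the gene, the longer form.
Hspd1: TTCCGGAAGGTTCTAGAA
Hspe1: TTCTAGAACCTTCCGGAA
Hsph1: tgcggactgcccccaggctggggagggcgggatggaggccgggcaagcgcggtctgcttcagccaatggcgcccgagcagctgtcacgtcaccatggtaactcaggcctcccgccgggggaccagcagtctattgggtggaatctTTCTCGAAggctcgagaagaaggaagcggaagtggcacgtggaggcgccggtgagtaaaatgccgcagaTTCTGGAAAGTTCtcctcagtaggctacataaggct
A match describes the letters of the window and is not evidence that a factor binds there. The other 12 genes with a core were Cct5, Cct6a, Dnaja1, Dnajb1, Dnajb6, Dnajc18, Dnajc27, Hspa2, Hspa9, Hspb1, Hspb6 and Hspb8.

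The dissected pieces had the markers of cortical neurons. Of 7 such genes 6 were measured past the filter on low values, among them Slc17a7, the vesicular glutamate transporter of cortical excitatory neurons, at 12.50 to 12.86 log2 and Snap25, a synaptic release protein, at 14.32 to 14.64. Markers of striatal projection neurons, which do not belong to the frontal cortex, were also present, with 12 of 15 listed genes past the filter. The mean of these 12 in a rat, each centred on its own mean, ran from -0.48 in rat 3 to 1.20 in rat 7, with rats 4 and 10 next at 0.73 and 0.39. Myelin markers (13 of 16) ran from -0.60 in rat 3 to 0.49 in rat 7, and meningeal markers (7 of 10) from -0.82 in rat 8 to 1.28 in rat 9. In bulk tissue, fewer cells of a type and less RNA per cell cannot be told apart. The values are deposited log2 summaries, and array upper quartiles ran from 8.13 in rats 3 and 5 to 8.25 in rat 2.

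Of the 71 chaperone genes, 56 had a mean of at least 3.99 log2, the level above which 50% of all probe sets lay, and went into the tests. All 4 Dnaja genes, both Hsp90 genes, Hspd1, Hspe1, Hsph1, Hspbp1 and all 8 chaperonin subunits passed, as did 8 of 11 Hspa, 9 of 12 Dnajb and 19 of 23 Dnajc genes. Only 2 of 7 Hspb genes passed, Hspb6 and Hspb8. Hspbp1, which the rule caught by its name, is not a small heat shock protein but a nucleotide exchange factor of Hsp70. The 15 genes below the filter had means from 1.70 to 3.95 log2 and are described by level alone. Just below it stood Hspb1, the small heat shock protein Hsp27, with values from 3.88 to 4.05 and a mean of 3.95. The others were Hspa1a, Hspa1l, Hspa12b, Hspb2, Hspb3, Hspb7, Hspb9, Dnajb3, Dnajb7, Dnajb13, Dnajc17, Dnajc18, Dnajc22 and Dnajc30. Hspa1a, an Hsp70 gene known for its strong rise under heat, ran from 2.39 to 2.44 log2 on its own probe set. A probe set assigned to Hspa1a and Hspa1b together ran from 3.34 to 3.39. A value below the filter does not show that a gene was silent.

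Some familiar chaperones have no probe set of their own on this array and so are not among the 71. Hsp90aa1, the inducible cytosolic Hsp90, shares both of its probe sets with a pseudogene, and these ran from 13.92 to 14.26 and from 14.02 to 14.29 log2. Hspa8, the constitutive Hsp70 of the cytosol, shares a probe set with Haus8l2 that ran from 14.66 to 14.91. Levels of different genes are not set against each other here, because probe sets differ in how strongly they bind their target.

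By role, the cytosolic machinery was measured as follows. Hsp90ab1, the constitutive Hsp90, ran from 13.76 log2 in rat 3 through a median of 13.85 to 13.98 in rat 4. Hspa12a, a distant relative of Hsp70, was lowest in rat 1 at 10.69, had a median of 10.81, and was highest in rat 2, spanning 1.24-fold. Rat 2 held the top value of many of these genes, and rats 3 and 5 the lowest of many. Hspa4l, an Hsp110 protein, ran from 9.29 in rat 7 through 9.51 to 9.74 in rat 2, Hspa2, best known from the testis, from 8.09 in rat 10 through 8.35 to 8.55 in rat 2, and Hspa14, a ribosome-associated Hsp70, from 8.31 in rat 10 through 8.44 to 8.68 in rat 4. Dnaja2, a DnaJ partner of cytosolic Hsp70, ran from 10.83 in rat 3 through 10.94 to 11.16 in rat 2.

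Of the DnaJ proteins of synaptic vesicles, Dnajc6 ran from 13.20 in rat 5 through a median of 13.42 to 13.53 in rat 2, and Dnajc5 from 11.23 in rat 5 through 11.40 to 11.57 in rat 2. On these main probe sets both were lowest in rat 5 and highest in rat 2, and each spanned 1.26-fold. Dnajc5 varied more on its 2 other probe sets past the filter, at 10.23 to 10.75 (SD 0.18) and 8.15 to 9.24 (SD 0.33). Both of these were lowest in rat 7, and they were highest in rat 10 and in rat 6, in that order. They had r = 0.60 and 0.55 against the main one (adjusted permutation p = 0.123 and 0.165). In mitochondria, Hspd1 ran from 11.38 in rat 8 through 11.49 to 11.66 in rat 2, and its lid Hspe1 from 11.79 in rat 5 through 11.96 to 12.03 in rat 4. These genes share a promoter region and were highest in different rats, but their correlation across rats was not tested. Dnaja3, the DnaJ partner of mitochondrial Hsp70, ran from 8.78 in rat 3 through 9.01 to 9.19 in rat 4.

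The chaperone genes had a spread between rats close to that of other genes. The SD between rats over the 56 genes had a median of 0.114 log2 (range 0.040 to 0.279), against 0.135 over all 15521 probe sets tested and 0.124 over 8483 genes each read through its highest probe set. The chaperonin subunits had a median SD of 0.084, the Hspd1 and Hspe1 pair 0.085, the Dnaja genes 0.106, the Dnajc genes 0.115, the Hspa genes 0.124 and the Dnajb genes 0.140. Among the genes with the smallest spread, Dnajc12, which works with the enzymes that hydroxylate aromatic amino acids, spanned 1.10-fold between the lowest and highest rat. Hsp90b1, the Hsp90 of the endoplasmic reticulum, spanned 1.14-fold, and Hsp90ab1, the constitutive cytosolic Hsp90, spanned 1.17-fold on its main probe set. A second Hsp90ab1 probe set past the filter varied more, from 13.54 in rat 8 to 13.95 in rat 2 (SD 0.11, against 0.080).

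The 8 genes with the largest spread came from several families. Hspa4, an Hsp110 protein that acts as a nucleotide exchange factor, ran from 8.53 log2 in rat 5 through a median of 9.09 to 9.33 in rat 4, a span of 1.74-fold (SD 0.28, n = 10). Rats 3 and 5 stood low at 8.68 and 8.53, and rats 4, 8 and 9 stood high at 9.33, 9.33 and 9.32. Dnajb12, a DnaJ protein of the endoplasmic reticulum membrane, had a low of 4.80 in rat 3, a median of 5.13 and a high of 5.71 in rat 8 (SD 0.24). Rat 10 was next at 5.34. A second Dnajb12 probe set past the filter ran only from 4.27 to 4.62 (SD 0.085), with rat 8 at 4.49. Against the main one it had r = 0.36 and rho = -0.02 (adjusted permutation p = 0.341 and 0.974). Dnajb14, a close relative of Dnajb12 in the same membrane, had a low of 8.98 in rat 7, a median of 9.21 and a high of 9.58 in rat 1 (SD 0.23). Rats 1, 2 and 9 were high in Dnajb14, at 9.58, 9.50 and 9.46, and rats 5, 6, 7 and 10 were low, at 9.04, 9.02, 8.98 and 9.00. The spans were 1.87-fold for Dnajb12 and 1.51-fold for Dnajb14.

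Dnajc4 ran from 6.27 in rat 2 through a median of 6.48 to 6.95 in rat 3 (SD 0.23), with rat 10 also high at 6.88. Hspb6, the small heat shock protein Hsp20, ran from 7.44 in rat 2 through 7.71 to 8.08 in rat 8 (SD 0.21). Rats 1 and 2 were the lowest for Hspb6, at 7.47 and 7.44, and rats 8 and 9 stood apart at the top, at 8.08 and 8.04. Dnajc3, a DnaJ protein of the endoplasmic reticulum that also restrains a kinase which slows translation, ran from 6.66 in rat 10 through 6.96 to 7.38 in rat 1 (SD 0.20). Hspbp1 ran from 7.59 in rat 5 through 7.88 to 8.08 in rat 8 (SD 0.18). Hspa5, the Hsp70 of the endoplasmic reticulum also known as BiP, ran from 11.98 in rat 5 through 12.14 to 12.41 in rat 2 (SD 0.16), with rats 1, 2 and 6 at 12.40, 12.41 and 12.38.

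**Figure D1:**
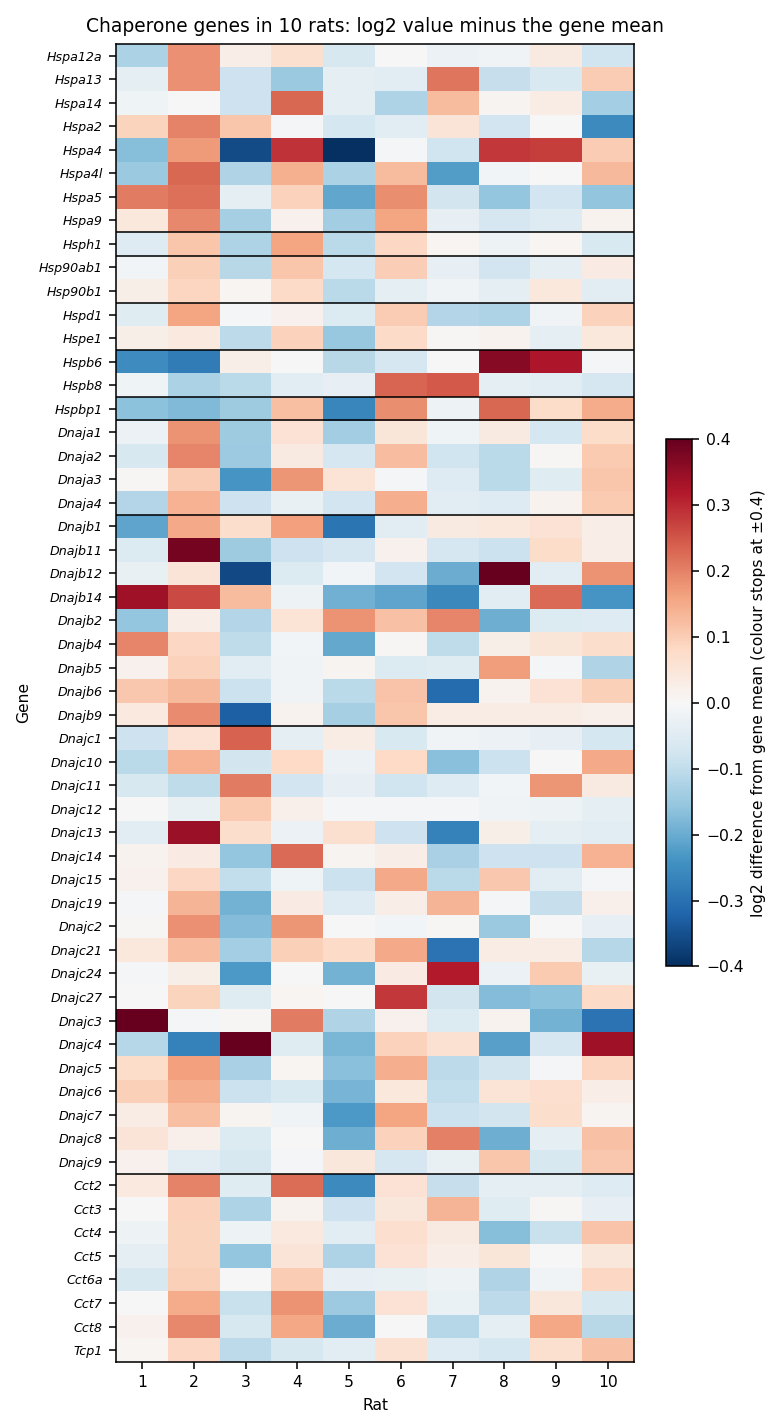
Each row is 1 of 56 chaperone genes and each column 1 of 10 rats; colour gives the log2 value minus the mean of the gene, with lines between families. Rat 2 is red in most rows and rats 3 and 5 are mostly blue, while Hspa4, Hspb6, Dnajb12, Dnajb14, Dnajc3 and Dnajc4 have the strongest colours.

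Whole arrays also differed in how the chaperone genes lay. In rat 2, 48 of the 56 genes were above the mean of the gene, and 19 had the highest value of all rats. In rat 5 only 9 were above it, and 15 had the lowest value there. Rat 3 had 14 above, and 15 with the lowest value. The median deviation of the 56 genes was 0.106 log2 in rat 2, -0.086 in rat 3 and -0.079 in rat 5. Over all genes it was 0.038, -0.068 and -0.045 in the same rats. Rat 2 had the highest array upper quartile, and rats 3 and 5 the lowest, whereas the array medians of rats 2, 3 and 5 were 3.97, 3.96 and 4.02 within a range of 3.91 to 4.02.

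The chaperonin subunits work as 1 complex with equal numbers of each protein, so the values were compared between subunits. Cct2 ran from 10.63 log2 in rat 5 through a median of 10.85 to 11.11 in rat 4 (SD 0.14). Cct7 ran from 10.92 in rat 5 through 11.05 to 11.25 in rat 4 (SD 0.11), and Cct8 from 10.30 in rat 5 through 10.48 to 10.69 in rat 2 (SD 0.13). In these 3 subunits rats 2 and 4 were high and rat 5 was the lowest, and rat 9 stood with rat 4 for Cct8, at 10.65 in both. Tcp1, the first-named subunit, ran from 11.27 in rat 3 through 11.36 to 11.49 in rat 10 (SD 0.077) and did not follow that order. All 8 subunits were above the mean in rat 2, 7 of 8 in rats 4 and 6, and 0 of 8 in rat 5. A second Cct8 probe set past the filter was also highest in rat 2, at 9.55, and lowest in rat 5, at 9.07. Rat 4 was not high on it, at 9.28 against a mean of 9.30. Its r against the main Cct8 probe set was 0.74 (adjusted permutation p = 0.0747).

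**Figure D2:**
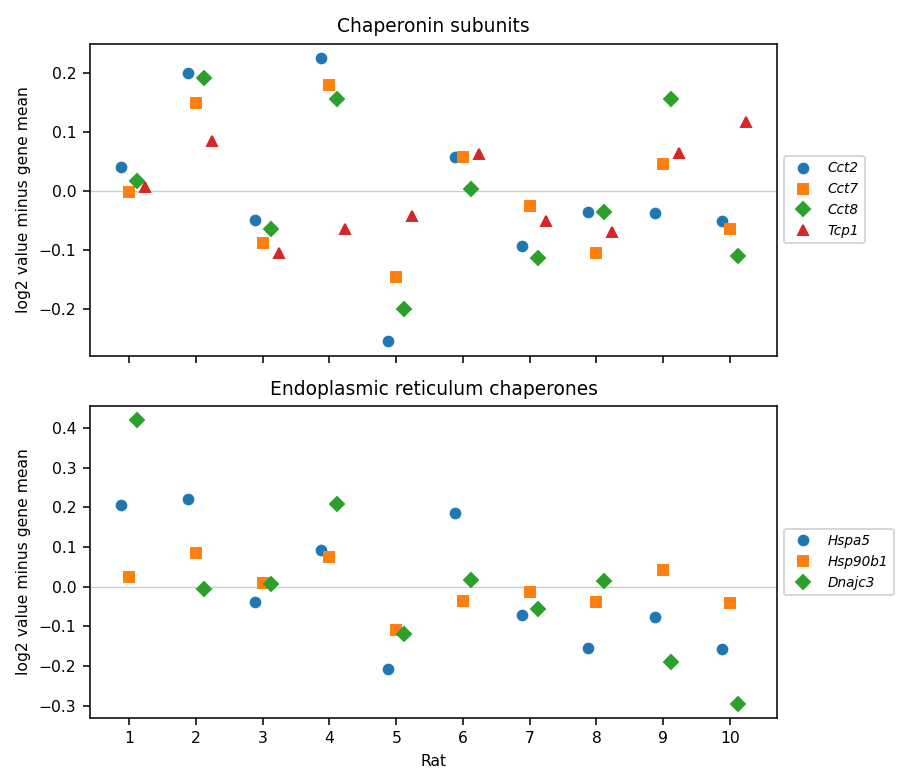
Points give the log2 value minus the mean of the gene for each of 10 rats, for 4 chaperonin subunits in the upper panel and 3 endoplasmic reticulum chaperones in the lower. Cct2, Cct7 and Cct8 are high in rats 2 and 4 and low in rat 5, rat 9 is also high for Cct8, and Tcp1 is highest in rat 10.

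Correlations were computed for 46 pairs within 3 sets of genes, with two-sided permutation tests and Benjamini-Hochberg adjustment over the 46. The pairs past the threshold of 0.05 were 3, all among Cct2, Cct7 and Cct8. Cct2 and Cct7 had r = 0.90 (permutation p = 0.00031, or 0.0143 after adjustment), and their ranks gave rho = 0.81 (permutation p = 0.00691, or 0.128 after adjustment). Cct7 and Cct8 had r = 0.88 (permutation p = 0.00103, or 0.0237 after adjustment), with rho = 0.79 (permutation p = 0.00835, or 0.128 after adjustment). For Cct2 and Cct8, r was 0.84 (permutation p = 0.00167, or 0.0256 after adjustment) and rho 0.84 (permutation p = 0.00378, or 0.128 after adjustment). By rho, 0 of the 46 pairs passed. Without rats 2 and 4, the farthest from the median, the 3 values of r were 0.73, 0.77 and 0.67, and 0 pairs passed. The number past the threshold was 0 without rat 2, without rat 4 or without rat 5, and 1 without rat 10.

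These correlations moved with the scaling of the arrays. After quantile normalization the same 3 pairs had r = 0.79, 0.81 and 0.70 and 0 pairs passed (adjusted permutation p = 0.155 for each of the 3), whereas 5 pairs passed with each array centred on its median. Cct4 and Cct6a, at r = 0.77 (adjusted permutation p = 0.108), kept r = 0.74 after quantile normalization. Tcp1 and Cct2 went from r = 0.22 to -0.72 (adjusted permutation p = 0.589 and 0.155), a negative value of like size. Over all 28 chaperonin pairs the median r was 0.45 with the deposited values and all 28 were positive. After quantile normalization the median was -0.003 and 50% were positive. The median over all pairs of the 56 chaperone genes was 0.26 before and 0.024 after, and that over all genes 0.11 and 0.041. The pairs share rats and arrays, so these medians are descriptions.

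The endoplasmic reticulum set held Hspa5, Hsp90b1, Dnajc3, Dnajb9, Dnajb11 and Hspa13. Hsp90b1 ran from 12.49 in rat 5 through a median of 12.60 to 12.68 in rat 2 (SD 0.059). Dnajb9, which binds the stress sensor IRE1, ran from 9.32 in rat 3 through 9.68 to 9.84 in rat 2 (SD 0.14), and Dnajb11, a soluble partner of Hspa5, from 8.34 in rat 3 through 8.42 to 8.86 in rat 2 (SD 0.15). Hspa13, an Hsp70 protein of the microsomes, ran from 9.82 in rat 4 through 9.93 to 10.18 in rat 7 (SD 0.12). Rat 2 held the highest value of Hspa5, Hsp90b1, Dnajb9 and Dnajb11, while Dnajc3 was highest in rat 1.

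None of the 15 endoplasmic reticulum pairs passed the adjusted threshold by the permutation test. Among the 3 genes with the stress element upstream, Hspa5 and Dnajc3 had r = 0.67 (permutation p = 0.0297, or 0.195 after adjustment) and rho = 0.66 (permutation p = 0.0440, or 0.184 after adjustment). Their r was 0.62 without rats 1 and 2 and 0.70 after quantile normalization. Hspa5 and Hsp90b1 had r = 0.65 (permutation p = 0.0439, or 0.252 after adjustment) and rho = 0.76 (permutation p = 0.0146, or 0.167 after adjustment). Leaving out rats 1 and 2 gave r = 0.50, and the sign turned, to -0.18 after quantile normalization. Hsp90b1 and Dnajc3 had r = 0.39 (adjusted permutation p = 0.407), and -0.003 after quantile normalization. Of the other pairs, Hsp90b1 and Dnajb9 went from r = 0.33 to -0.73 with that normalization (adjusted permutation p = 0.451 and 0.160). The median over the 15 pairs was 0.40, and -0.12 after quantile normalization.

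Of 8 heat-inducible cytosolic genes listed, 3 had a probe set of their own past the filter: Dnajb1 and Dnaja1, DnaJ partners of cytosolic Hsp70, and Hsph1, an Hsp110 protein. Dnajb1 ran from 9.61 in rat 5 through a median of 9.94 to 10.07 in rat 4 (SD 0.15), Dnaja1 from 11.66 in rat 3 through 11.81 to 11.98 in rat 2 (SD 0.10), and Hsph1 from 10.63 in rat 3 through 10.75 to 10.91 in rat 4 (SD 0.093). Dnaja1 and Hsph1 had r = 0.73 (permutation p = 0.0170, or 0.156 after adjustment) and rho = 0.66 (permutation p = 0.0427, or 0.184 after adjustment). Leaving out rats 2 and 3 gave r = 0.54, and r was 0.28 after quantile normalization. Dnajb1 and Hsph1 had r = 0.58 and Dnajb1 and Dnaja1 r = 0.52 (adjusted permutation p = 0.264 and 0.313). These were 0.53 and 0.56 after quantile normalization.

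**Figure D3:**
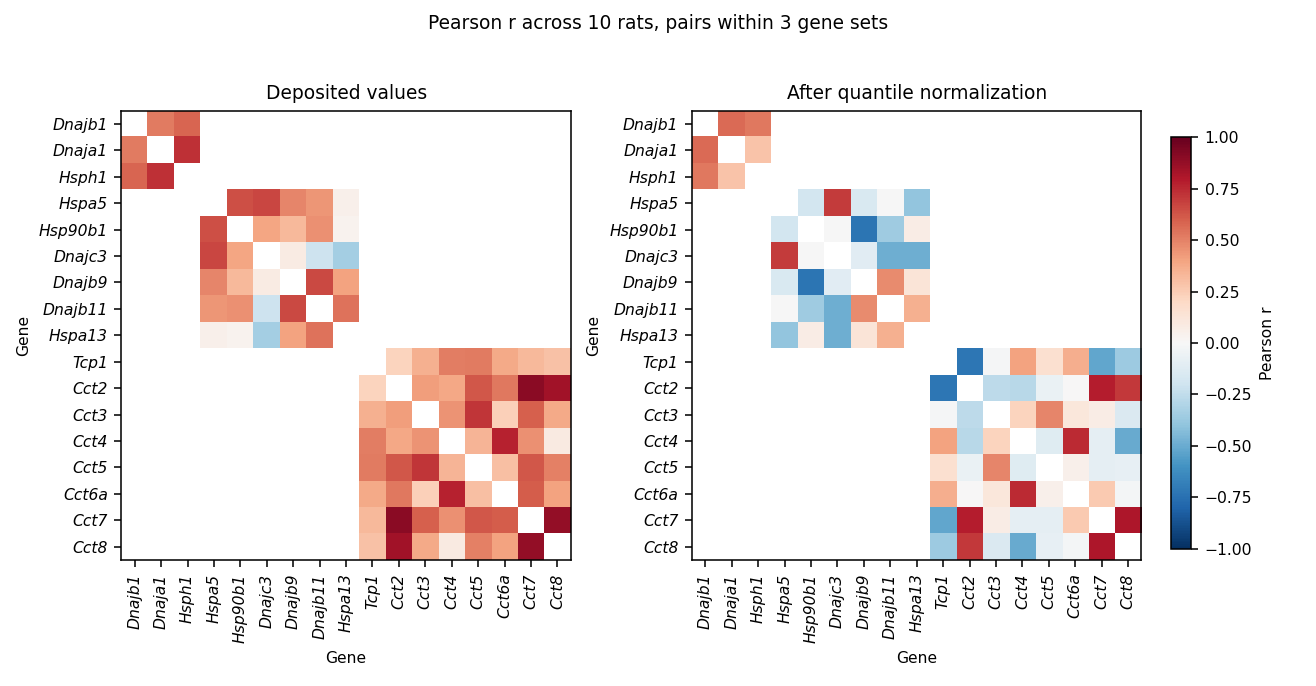
Squares give Pearson's r across 10 rats for the 46 pairs within 3 gene sets, with deposited values on the left and after quantile normalization on the right. All 28 chaperonin pairs are positive on the left, and on the right the positive squares that remain strong include Cct2, Cct7 and Cct8 with each other, Cct4 with Cct6a, and Hspa5 with Dnajc3. Squares of like strength but negative also appear on the right, among them Tcp1 with Cct2 (-0.72) and Hsp90b1 with Dnajb9 (-0.73).

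Where a gene had a further probe set past the filter, both were compared across rats. This gave 20 pairs of probe sets in 18 genes, of which 19 had a positive r (median 0.61, lowest -0.53, highest 0.85). After quantile normalization the median was 0.46. Pairs past an adjusted permutation p of 0.05 over the 20 were 2. For Dnajc6, r was 0.85 (permutation p = 0.0019, or 0.0221 after adjustment) and rho 0.92 (permutation p = 0.00053, or 0.0106 after adjustment). It was 0.74 without the 2 farthest rats. For Dnajb14, r was 0.72 (permutation p = 0.00221, or 0.0221 after adjustment), but rho was 0.53 (permutation p = 0.122, or 0.269 after adjustment) and r was 0.43 without the 2 farthest rats. The second Dnajb14 probe set lay near the filter, at 3.96 to 4.79 log2, and its highest value was in rat 1, as on the main probe set.

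In some genes a probe set did not follow the main one. For Cct6a r was 0.01 (permutation p = 0.986), and the second probe set ran from 8.19 in rat 7 to 9.31 in rat 6 with an SD of 0.30, against 0.072 on the main one. Hspa9, the Hsp70 of mitochondria, ran from 10.22 in rat 5 to 10.55 in rat 2 on the main probe set (SD 0.11). Another Hspa9 probe set past the filter ran from 5.25 in rat 4 to 7.64 in rat 1 (SD 0.70), with r = 0.07 against the main one (permutation p = 0.852). This probe set, picked after its values were seen, was lowest in rats 4 and 10, at 5.25 and 5.82, and its slope along the striatal marker score was -0.51 ± 0.15 (SE, n = 10; limma adjusted p = 0.123). A further Hspa9 probe set, at 8.96 to 9.47, had r = 0.52 and rho = 0.48 against the main one (adjusted permutation p = 0.165 and 0.273). For Dnajb5, a DnaJ protein of the cytosol, r was -0.53 (permutation p = 0.117).

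**Figure D4:**
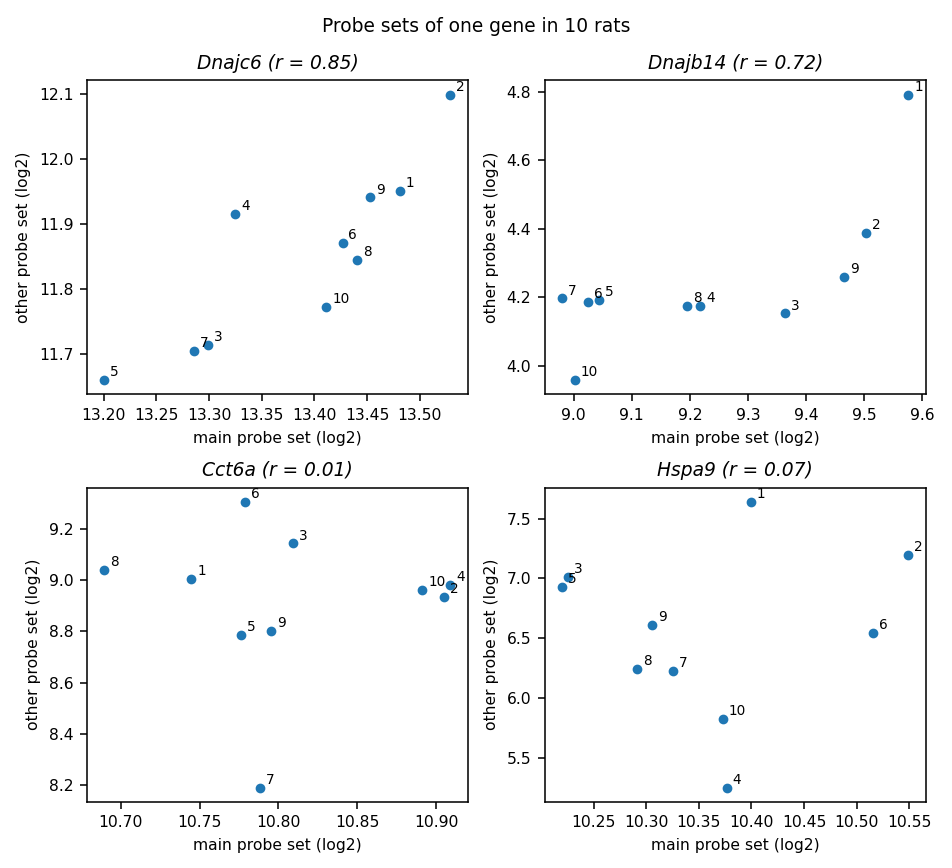
Each panel plots, for 1 gene, the log2 value of a further probe set against that of the main probe set in 10 numbered rats. The points rise together for Dnajc6 and, mainly through rats 1, 2 and 9, for Dnajb14, and show no common order for Cct6a and Hspa9.

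The series asked how mRNA levels relate to behaviour, and each score was set against every probe set. Slopes give the change in log2 value for 1 SD more of the score, from limma with Benjamini-Hochberg adjustment over 15521 probe sets. With an adjusted p under 0.05, 0 of the 56 chaperone genes were called for startle, locomotion, sugar feeding, prepulse inhibition or the plus maze score. The background was also 0% of all probe sets in each of the 5. With an unadjusted p under 0.05 and either direction, startle had 3 chaperone genes (5.36% of 56, against a background of 5.59%), locomotion 1 (1.79% against 2.93%), sugar feeding 1 (1.79% against 2.13%), prepulse inhibition 2 (3.57% against 7.41%) and the plus maze score 2 (3.57% against 6.95%). Each of these shares rests on 1 to 3 genes, and the 5 scores come from the same rats and arrays. A difference from the background cannot be read from them.

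Startle, the jump to a sudden loud sound, ranged from 363 in rat 2 to 943 in rat 7. The 3 chaperone genes with an unadjusted p under 0.05 all had negative slopes, against a background of 4.3% in that direction. The slope of Dnajc3 was -0.13 ± 0.05 (SE, n = 10), with p = 0.0257 and an adjusted p of 0.808, and -0.07 without rat 1. Dnajb14 had -0.14 ± 0.06 (p = 0.0396), and Dnajc13, which acts in sorting at endosomes, had -0.10 ± 0.04 (p = 0.0335). Dnajc13 ran from 5.84 in rat 7 through a median of 6.08 to 6.45 in rat 2, the rats with the highest and the lowest startle, and leaving out 1 rat moved its slope between -0.13 and -0.04 (without rat 2). Hspb8, a small heat shock protein that works in autophagy with Bag3, had the positive slope of smallest p, 0.08 ± 0.04 (p = 0.0743; 0.04 without rat 7), with values from 5.49 in rat 2 through 5.58 to 5.86 in rat 7. Of the 56 genes 12 had positive and 44 negative slopes, with a median of -0.024 against -0.015 over all probe sets, of which 62.3% had negative slopes. After quantile normalization 31 were positive and 25 negative, with 56.6% of all probe sets positive. Without rat 2 the count was 26 positive, with 42.8% of all probe sets positive.

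Locomotion ranged from 9420 in rat 10 to 17987 in rat 4. Dnajc3 was high in the 2 most active rats, at 7.17 in rat 4 and 7.38 in rat 1, and low in rats 9 and 10, at 6.77 and 6.66, which were among the least active. Rats 8 and 6, also among the least active, were at 6.97 and 6.98, near the Dnajc3 median of 6.96. The slope of Dnajc3 was 0.17 ± 0.04 (SE, n = 10; p = 0.00168, adjusted p = 1.00), or 1.12-fold per SD, and it lay between 0.11 and 0.19 in the fits that left out 1 rat. The background of positive slopes at that unadjusted threshold was 2.31%. Hspa5, its partner in the endoplasmic reticulum, had 0.10 ± 0.04 (p = 0.0518) and Hsp90b1 0.04 ± 0.02 (p = 0.159). The negative slope of smallest p was that of Hspb6, -0.10 ± 0.06 (p = 0.110). Slopes were positive in 36 and negative in 20 of the 56 genes, with a median of 0.011. Over all probe sets the median was 0.014, with 65.4% positive. After quantile normalization 17 of the 56 were positive and 39 negative, with 46.0% of all probe sets positive. Of the 8 chaperonin subunits 7 had positive slopes, the highest being 0.08 ± 0.04 for Cct2 (p = 0.0768).

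Sugar feeding ranged from 0 in rat 5 to 2.15 in rat 7. Dnajc8, a nuclear DnaJ protein found with splicing factors, sloped by 0.09 ± 0.03 (SE, n = 10), with p = 0.0316 and an adjusted p of 1.00, where 1.45% of all probe sets had a positive slope below that threshold and 0.677% a negative one. It ran from 9.93 in rat 5 through a median of 10.13 to 10.32 in rat 7, the rats of lowest and highest intake, and rat 8, with the next lowest intake, was also at 9.93. Dnajb12 had the negative slope of smallest p, -0.13 ± 0.07 (p = 0.0786), and -0.07 without rat 8. The second Dnajb12 probe set had -0.05 ± 0.03 (limma p = 0.148). Of the 56 genes 36 had positive and 20 negative slopes, with a median of 0.014. Over all probe sets the median was 0.008, with 58.4% positive. After quantile normalization 29 of the 56 were positive and 27 negative, with 47.4% of all probe sets positive. Without rat 5 the count was 22 positive, with 49.7% of all probe sets positive.

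Prepulse inhibition, the damping of startle by a softer sound just before it, ranged from 6.80 in rat 1 to 42.5 in rat 4. The slope of Hspb6 was 0.14 ± 0.05 (SE, n = 10), with p = 0.0168 and an adjusted p of 0.630, against a background of 1.97% in the positive direction. Its 2 lowest values were in rats 1 and 2, which had the lowest inhibition, and its 2 highest in rats 8 and 9, but rats 4 and 5, also with strong inhibition, were at 7.72 and 7.61, near the median. The slope stayed between 0.11 and 0.18 without any 1 rat. Hspa5 had -0.10 ± 0.04 (p = 0.0435, adjusted p = 0.667), against a background of 5.44% in the negative direction, and was highest in rats 2 and 1. Of the 56 genes 18 had positive and 38 negative slopes (median -0.014; all probe sets -0.010, with 58.7% negative). After quantile normalization 36 were positive and 20 negative, and 57.1% of all probe sets were positive.

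The plus maze, a test of anxiety-like behaviour, had numbers for 7 rats, from 0 in rats 2 and 7 to 60.3 in rat 5, with rat 4 next at 20.2. Hspa4 sloped by -0.20 ± 0.08 (SE, n = 7; limma adjusted p = 0.685). Its unadjusted p was 0.0366, against a background of 5.74% with a negative slope below 0.05. Its lowest value, 8.53, was that of rat 5, and without rat 5 the slope was 0.04. Dnajb9 had -0.08 ± 0.03 (limma p = 0.0492), and -0.03 without rat 5. Dnajb2, a neuronal DnaJ protein, had the positive slope of smallest p, 0.06 ± 0.06 (limma p = 0.305), and was at 10.30 in rat 5, 9.92 in rat 8 and 10.31 in rat 7. Slopes were negative in 45 of the 56 genes, including 8 of 8 chaperonin subunits and 8 of 8 Hspa genes, with a median of -0.037 against -0.014 over all probe sets, of which 60.8% had negative slopes. Without rat 5 there were 24 positive and 32 negative, with 53.6% of all probe sets positive. After quantile normalization there were 22 positive and 34 negative, with 48.7% of all probe sets positive.

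**Figure D5:**
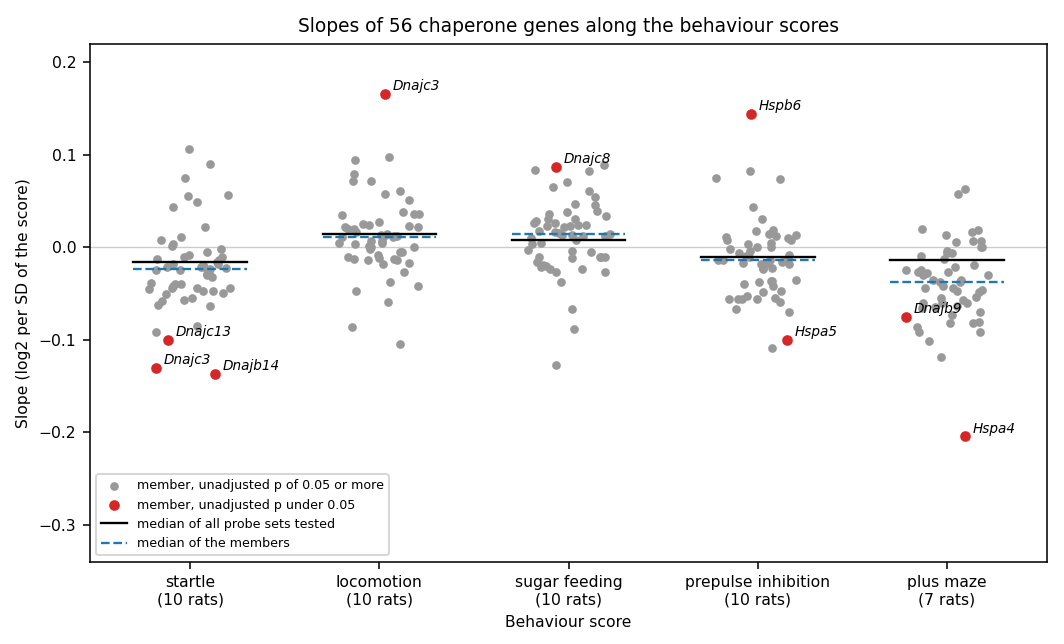
Points are the slopes of 56 chaperone genes in log2 per SD of each behaviour score; red points are named and have an unadjusted p under 0.05, and lines give the medians of the chaperone genes (dashed) and of all 15521 probe sets (solid). Most points lie within 0.1 of 0, and 0 genes passed the adjusted threshold.

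The makeup of the dissected pieces was read through the marker scores, none of which contains one of the 71 genes. An adjusted p under 0.05 was reached by 248 of the 15521 along the striatal score (1.6%), along the myelin score 339 (2.18%), along the meningeal score 22 (0.142%) and along the score of immediate-early genes, which rise with neuronal activity, 5 (0.0322%). These counts include markers that make up the scores: 12, 20, 10 and 4 of the probe sets called, in that order, belong to genes of the score itself, which leaves 236, 319, 12 and 1 others. Of the 56 chaperone genes 0 passed along each of the 4. With an unadjusted p under 0.05 there were 3 along the striatal score (5.36% against a background of 14.5%), 3 along the myelin score (5.36% against 16.2%), 2 along the meningeal score (3.57% against 3.67%) and 1 along the immediate-early score (1.79% against 2.2%). By direction, the striatal score had 0 positive and 3 negative chaperone slopes (background 6.07% and 8.47%), the myelin score 1 and 2 (background 9.01% and 7.24%), the meningeal score 2 and 0 (background 1.5% and 2.16%) and the immediate-early score 0 and 1 (background 0.947% and 1.26%). The signs of all 56 slopes were split 27 positive to 29 negative for the striatal score, 32 to 24 for myelin, 26 to 30 for meninges and 20 to 36 for immediate-early genes. Over all probe sets 53.3%, 59.6%, 40.0% and 39.1% of slopes were positive for these scores in the same order.

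Dnajb14 was among the chaperone genes below that threshold for 3 of the 4 scores. Its slope was -0.17 ± 0.05 along the myelin score (SE, n = 10; limma p = 0.00551, adjusted p = 0.110), -0.14 ± 0.06 along the striatal score (limma p = 0.0330) and 0.14 ± 0.06 along the meningeal score (limma p = 0.0341). The striatal and myelin scores were both lowest in rat 3 and highest in rat 7, so the slopes along them are not separate results. Rats 7 and 10, among the lowest for Dnajb14, had high striatal and myelin scores, and rat 9, among the highest, had the top meningeal score. Rat 4, second highest on the striatal and myelin scores, was near the Dnajb14 median, at 9.22. Rats 1 and 2, the highest for Dnajb14, had meningeal scores of 0.10 and 0.15, and rat 3, at 0.96, was at 9.36. The second Dnajb14 probe set had -0.07 ± 0.07, -0.09 ± 0.06 and 0.03 ± 0.07 along the myelin, striatal and meningeal scores, and -0.12 ± 0.06 along startle. Dnajc13 had -0.11 ± 0.04 along the myelin score (limma p = 0.0207) and -0.09 ± 0.04 along the striatal score (limma p = 0.0494), which were -0.07 without rat 2 and -0.04 without rat 7. Dnajb6, which keeps proteins with glutamine stretches from clumping, had -0.09 ± 0.04 along the striatal score (limma p = 0.0412). Dnajb6 ran from 13.55 in rat 7 through a median of 13.90 to 13.99 in rat 2, and its slope was -0.02 without rat 7.

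Hspb8 had a positive slope of 0.08 ± 0.04 along the myelin score (SE, n = 10; limma p = 0.0368, adjusted p = 0.274), and rats 6 and 7 were its highest, at 5.85 and 5.86. Without rat 7 the slope was 0.05. Dnajc11, a mitochondrial DnaJ protein, had 0.08 ± 0.03 along the meningeal score (limma p = 0.0191, adjusted p = 1.00). It was highest in rats 3 and 9, at 6.43 and 6.40, the rats with the highest meningeal scores, while its second probe set had -0.002 ± 0.04. Tcp1 had -0.06 ± 0.02 along the immediate-early score (limma p = 0.0448, adjusted p = 1.00). The part of tissue makeup in the slopes of these genes along behaviour was not tested. In fits that held the striatal score constant, 0 chaperone genes passed an adjusted p of 0.05 for startle, locomotion, sugar feeding or prepulse inhibition. The count was already 0 in the fits without that score, so it cannot show the part of tissue makeup.

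Other genes of chaperone pathways were taken from lists fixed with the comparisons: 55 genes, of which 46 were past the filter, Hspbp1 being counted here as well as among the 56. For the 5 behaviours 0 of the 46 passed an adjusted p of 0.05. The regulator Hsf1 ran from 5.44 to 6.18 log2 and had -0.14 ± 0.04 along the myelin score (SE, n = 10; limma p = 0.00545, adjusted p = 0.109), and Hsf2, a relative, had 0.07 ± 0.03 along locomotion (limma p = 0.0338). An unadjusted p under 0.05 was reached by 16.2% of all probe sets along the myelin score and by 2.93% along locomotion. Of 20 cochaperones 2 had an unadjusted p under 0.05 along sugar feeding, where 2.13% of all probe sets did: Fkbp5, a glucocorticoid-induced partner of Hsp90, at 0.13 ± 0.04 and Unc45a, a myosin chaperone, at 0.12 ± 0.05. Fkbp5 had the same size along locomotion, 0.13 ± 0.04 (limma p = 0.0149, adjusted p = 1.00). Along the plus maze score 19 of the 20 cochaperones had negative slopes, against 60.8% of all probe sets. Without rat 5, a fit added after the data were seen, 8 of the 20 were negative and 12 positive. Over all probe sets 53.6% of slopes were positive without rat 5. With all 7 rats, Ptges3 (p23 of the Hsp90 cycle) had -0.08 ± 0.03 and Cacybp -0.12 ± 0.05, and these 2 had an unadjusted p under 0.05, where 6.95% of all probe sets did.

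Of 16 endoplasmic reticulum folding and stress genes 2 had an unadjusted p under 0.05 along startle, the stress factor Xbp1 at -0.09 ± 0.04 and the Hsp110-like Hyou1 at 0.08 ± 0.03, and 2 along locomotion, Ddit3 at 0.10 ± 0.04 and Herpud1 at 0.07 ± 0.03, both known targets of the unfolded protein response. The shares over all probe sets were 5.59% for startle and 2.93% for locomotion. Sdf2l1, a partner of Dnajb11, had 0.20 ± 0.08 along prepulse inhibition (limma p = 0.0318, adjusted p = 0.639). Of 7 prefoldin and phosducin-like genes, which feed clients to the chaperonin, 0 had an unadjusted p under 0.05 along the 5 behaviours, the nearest being Pfdn5 at -0.10 ± 0.04 along the plus maze score. Cryab, a small heat shock protein abundant in oligodendrocytes, was the 1 gene of the 46 that passed along a marker score. It ran from 7.54 to 8.48 log2, with a slope of 0.24 ± 0.04 along the myelin score (limma adjusted p = 0.0224). Over all probe sets 2.18% passed along the myelin score, so 1 of 46 is near the background.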

How the data were processed

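Expression was measured on 10 Affymetrix rat arrays. The deposited values are log2 summaries per probe set, made with GCRMA under R 2.6.2 per the submitters' processing notes. GCRMA corrects background by probe sequence and combines probes. Its version and options, including any normalization between arrays, were not given in the sources used here. Array upper quartiles differ (8.13 to 8.25), so the deposited arrays do not share quantiles at the level of probe sets. Quantile normalization of the deposited probe set values was an alternative. Genes were named from the platform annotation, and all 71 matched RefSeq (GRCr8) by gene number. Array controls (57 of 31099 probe sets) were left out and the upper 50% by mean kept. Slopes came from limma 3.58.1 in R 4.3.3 (lmFit, eBayes), two-sided, checked on simulated data. Correlations used scipy 1.17.1, with 100000 resamples (exact below 10 rats). The number of arrays limits precision.

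Genes were named by rule: per score, unadjusted p under 0.05 (at most 4 per direction, or the 1 of smallest p), the 8 of largest SD, the highest and lowest mean per family, the correlation sets, and 2 per pathway list. Members, lists and tests were chosen with earlier results of these data known. Alternatives were another filter, scaling, ranks, other eBayes options, the 4 scores jointly, a striatal covariate, other probe sets and each rat left out. Protein sequences were not used here.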

Additional observations from a re-analysis of the deposited data

Results flagged for a closer look

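In 3 of the 56 chaperone genes 1 rat stood apart from the other 9 by Dixon's criterion for 10 samples (a gap over 0.466 of the range). Chance meets this criterion in about 1 in 20 groups, and 3 of 56 is near that rate. The share over all probe sets was not counted. Dnajb11, the soluble DnaJ partner of Hspa5, was at 8.861 log2 in rat 2, with the next rat at 8.553 and the lowest at 8.337. Dnajc12 was at 8.439 in rat 3, with the next rat at 8.354 and the lowest at 8.296. Dnajc1, a DnaJ protein of the endoplasmic reticulum membrane, was at 7.695 in rat 3, with the next at 7.517 and the lowest at 7.375. Rat 2 was the array with the highest upper quartile, and rat 3 had the highest immediate-early score and the lowest striatal and myelin scores. Their part in these values was not tested.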

How the results depend on the processing

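No paired analysis was possible because the rats form 1 group, with 1 array each. For the 5 behaviours the count past an adjusted p of 0.05 was 0 under every alternative run, and 0 chaperone genes passed for any score. Without the filter on low values the striatal count was 104, the myelin count 132 and the immediate-early count 0, and with arrays centred on their medians the myelin count was 529. Leaving out 1 rat gave 95 to 380 probe sets along the striatal score, 92 to 378 along the myelin score, 4 to 23 along the meningeal score, 0 to 4 along the immediate-early score and 0 to 4 correlated pairs, the last chosen after seeing the data. Correlated pairs numbered 0 after quantile normalization, 5 with arrays centred and 0 without the 2 farthest rats. The sign turned for Dnajb12 along sugar feeding with 4 scores in 1 model (0.0372), for Dnajb2 along the plus maze score with ranks (-0.0003) and without rat 5 (range without 1 rat -0.0265 to 0.1006), for Hspa4 along that score without rat 5 (range without 1 rat -0.2481 to 0.0377) and for Dnajc11 along the meningeal score on its second probe set (-0.0024). The cause was not tested. With 10 arrays the median SE of a chaperone slope was about 0.038 to 0.039 for the 4 main behaviours and 0.046 for the plus maze score.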
